A study of Mus musculus with 29 samples.

Results

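The 10 genes described here are members of the Bcl2 family other than Bbc3 (Puma), Bax and Pmaip1 (Noxa), which p53 is known to activate. They were chosen by name, not by their values, and are 4 prosurvival genes (Bcl2, Bcl2l1, Mcl1 and Bcl2l2), 5 BH3-only genes (Bcl2l11, Bid, Bad, Bmf and Bik) and the effector Bak1. All 10 were found among 23366 genes counted in 29 libraries, and all 10 passed the filter on low counts. RNA was measured in lineage-negative, cKit-positive, Sca1-positive cells sorted from the marrow of C57BL/6 mice aged 8 to 12 weeks, in a CD150-positive population, which holds stem cells, and a CD150-negative one, which holds multipotent progenitors. CD150-positive libraries were labelled Mysm1-/-Puma-/- (7 libraries), Mysm1-/-Puma+/- (4), Puma-/- with intact Mysm1 (2) and wild type for both genes (4). CD150-negative libraries had the same 4 genotypes with 3 libraries each. No group lacked Mysm1 with both copies of Puma present, and the submitters used Mysm1-/-Puma+/- mice in that place. The labels gave both sexes, and neither the animals behind each library nor the design of the alleles, so the p-values rest on the variation among libraries, part of which may be technical.

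Proteins of the Bcl2 family decide whether the outer mitochondrial membrane stays closed. Prosurvival members hold the pore-forming effectors Bak and Bax in check, and BH3-only proteins, which share a single short helix with the family, set the effectors free by binding either side. Mcl1 is known to be needed for the survival of blood stem cells in mice, Bcl2l1 for that of red cell precursors and platelets, and Bcl2 for that of mature lymphocytes. Mysm1 encodes a deubiquitinase of histone H2A, and the series title places Bbc3 under its repression. The family members outside the p53 targets were followed for their levels, for their difference between the populations and for their response to the loss of Mysm1 and Puma.

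Library totals were 12304713 to 35034318 counts in CD150-positive cells and 28066870 to 54339749 in CD150-negative cells. Levels are CPM, reads relative to library size, scaled by TMM over all 29 libraries, and a gene was called when its Benjamini-Hochberg adjusted p in edgeR's quasi-likelihood test over all genes tested was under 0.05. Whether the values of 2 groups overlapped is given as a description. Groups held 2 to 7 libraries, and the share of all genes without overlap was not computed. The counted part of Mysm1 was not lost with the label. Its level averaged 72.6 ± 7.29 CPM in CD150-negative Mysm1-/-Puma-/- and 98.8 ± 22.7 in Mysm1-/-Puma+/- libraries, against 103.2 ± 5.01 in wild type (SD, n = 3 each), and in CD150-positive cells 80.5 ± 8.5 (n = 7) and 101.1 ± 5.82 (n = 4), against 121.2 ± 7.04 in wild type (n = 4). Bbc3 averaged 19.4 ± 3.41 CPM in CD150-positive and 25.9 ± 3.87 in CD150-negative Mysm1-/-Puma-/- libraries and 2.49 ± 0.29 and 5.56 ± 0.38 in Puma-/- libraries, against 3.81 ± 0.77 and 6.44 ± 1.93 in wild type (SD), so its counted part was not lost with the label either. Since the altered part of either gene was not given, whole-gene counts do not check these labels, and every direction below is that of the libraries as labelled. Of the 6 markers of the sorted cells, Slamf1, which encodes CD150, was called higher in CD150-positive cells in every genotype, with a highest level of 2.30 CPM in any CD150-negative library, and Cd34, Flt3 and Cd48, which mark progenitors, were called lower in every genotype. Between the populations, Kit was called higher in CD150-positive cells of Mysm1-/-Puma-/- mice, and Ly6a was called in no genotype. Counts on 1474 smell, pheromone and trace amine receptor genes, which blood cells hardly use, made up 622.5 to 9004 CPM, and the CD150-negative library B1 and the CD150-positive libraries B5, C2-5 and D2 stood above the others in it, so results were also computed without these 4.

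The coordinates are those of the NCBIM37 (mm9) annotation. Among the prosurvival genes, Bcl2 lies on chromosome 1 (108434755 to 108610851, minus strand), Bcl2l1 on chromosome 2 (152593052 to 152657464, minus), Mcl1 on chromosome 3 (95462643 to 95467099, plus) and Bcl2l2 on chromosome 14 (55502214 to 55507071, plus). Among the BH3-only genes, Bcl2l11 lies on chromosome 2 (127951774 to 127988283, plus), Bid on chromosome 6 (120841948 to 120866871, minus), Bad on chromosome 19 (7016351 to 7026388, plus), Bmf on chromosome 2 (118354493 to 118375423, minus) and Bik on chromosome 15 (83357292 to 83375065, plus). The effector gene Bak1 lies on chromosome 17 (27156755 to 27165954, minus). Each value is a sum over a whole gene, so isoforms such as the long and short products of Bcl2l1 cannot be told apart. Bid overlaps Bcl2l13, Bad overlaps Gpr137 and Bak1 overlaps Ggnbp1, each on the other strand and each counted too. The kit marks strand, but the strand setting of the counting was not given, so values of these 3 members are uncertain to that extent. Bcl2l2 overlaps Gm20521 on its own strand.

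The promoters of Bcl2, Bcl2l1 and Bcl2l11 are shown because these 3 genes were the only members called in any of the 15 comparisons. Each is the 250 bases before the most upstream start that RefSeq lists for the gene (GRCm38.p6), and capitals mark matches to 5 motifs searched on both strands. These were the GC box (GGGCGG), the CRE half-site (TGACG), the ETS core (CCGGAA), the FOXO motif (GTAAACA) and the p53 half-site, and no matches overlapped in these windows.
Bcl2, chr1:106714291-106714540, minus strand: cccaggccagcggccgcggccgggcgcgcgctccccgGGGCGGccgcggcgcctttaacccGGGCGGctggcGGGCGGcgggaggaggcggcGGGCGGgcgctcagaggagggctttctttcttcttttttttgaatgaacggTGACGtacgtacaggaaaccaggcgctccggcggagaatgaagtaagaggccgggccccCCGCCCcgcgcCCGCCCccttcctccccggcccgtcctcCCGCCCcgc
Bcl2l1, chr2:152831729-152831978, minus strand: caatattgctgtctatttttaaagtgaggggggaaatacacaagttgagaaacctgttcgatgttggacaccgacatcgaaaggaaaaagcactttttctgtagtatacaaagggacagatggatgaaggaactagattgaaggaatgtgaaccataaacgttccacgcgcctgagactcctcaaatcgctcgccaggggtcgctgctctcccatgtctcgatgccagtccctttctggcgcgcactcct
Bcl2l11, chr2:128125788-128126037, plus strand: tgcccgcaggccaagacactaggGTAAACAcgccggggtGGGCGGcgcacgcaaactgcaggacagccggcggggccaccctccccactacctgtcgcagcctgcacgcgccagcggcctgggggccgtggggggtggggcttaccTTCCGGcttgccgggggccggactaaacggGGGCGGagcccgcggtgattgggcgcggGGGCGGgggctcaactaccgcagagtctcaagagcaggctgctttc
The Bcl2 window held 7 GC boxes and 1 CRE half-site. The Bcl2l11 window held 3 GC boxes, 1 FOXO motif and 1 ETS core, and the Bcl2l1 window held no match to any of the 5, so these letters do not occur in it. Over all 32851 promoter windows of the same length, 32.7% held a GC box, 17.8% a CRE half-site, 12.0% an ETS core, 3.17% a FOXO motif and 7.13% a p53 half-site. The table matched 9 of the 10 members with 15 windows. Among the members, 1 (Bmf) had a p53 half-site, 1 (Bcl2l11) a FOXO motif, 6 a GC box, 4 (Mcl1, Bcl2l11, Bid and Bad) an ETS core and 2 (Bcl2 and Bmf) a CRE half-site in at least 1 window. These are counts of genes, some with several windows, while the shares above are per window. Counted by window, 7 of the 15 held a GC box, 4 an ETS core and 2 a CRE half-site. A FOXO motif was in 1 window and a p53 half-site in 1. A match is a run of letters, not a measured site.

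Mcl1 stood above every other member in all 8 groups. Scaled by the deposited gene length, its group means were 56.5 to 87.3 CPM per kilobase. Mcl1 protein is known for its short life, and its gene is the most highly expressed prosurvival member here. Bid and Bak1 followed with 10.97 to 20.3 and 14.2 to 18.3 CPM per kilobase, and Bcl2 had 9.64 to 18.7. The order of these 3 depended on the length used: with the exon length of the mm9 annotation, Bcl2 ranked 2 or 3 in every group and Bid 4 or 5, against ranks of 2 to 5 for Bcl2 and 2 or 3 for Bid with the deposited length. Bad, whose product is held inactive by growth-factor signals, had 6.201 to 10.99 CPM per kilobase, Bcl2l1 had 5.63 to 10.8 and Bcl2l2 had 4.35 to 6.34. Bcl2l11, the gene of Bim, reached 0.657 to 2.29 and Bmf 0.484 to 1.25 CPM per kilobase. Within each group the mean of Bad was above that of Bcl2l2 and the mean of Bcl2l11 above that of Bmf with either length. The place of Bcl2l11 below Bcl2l1 and Bcl2l2 held in all groups with the deposited length only: with annotated lengths it had 1.201 to 4.19, Bcl2l1 2.82 to 5.41 and Bcl2l2 3.37 to 4.92 CPM per kilobase, and in CD150-negative Mysm1-/-Puma+/- cells Bcl2l11 stood above both.

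Bik was at or near zero throughout. It had no count in 9 of the 29 libraries (6 CD150-positive and 3 CD150-negative) and at most 24 counts in any other, a highest level of 1.02 CPM, so its fitted folds carry intervals several units wide on the log2 scale and no direction is read from them. Among the BH3-only genes Bid, which links caspase cleavage to mitochondria, had the highest level per length with either length scale, except against Bad in 2 groups, CD150-positive Puma-/- and wild type, with annotated lengths.

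**Figure D1:**
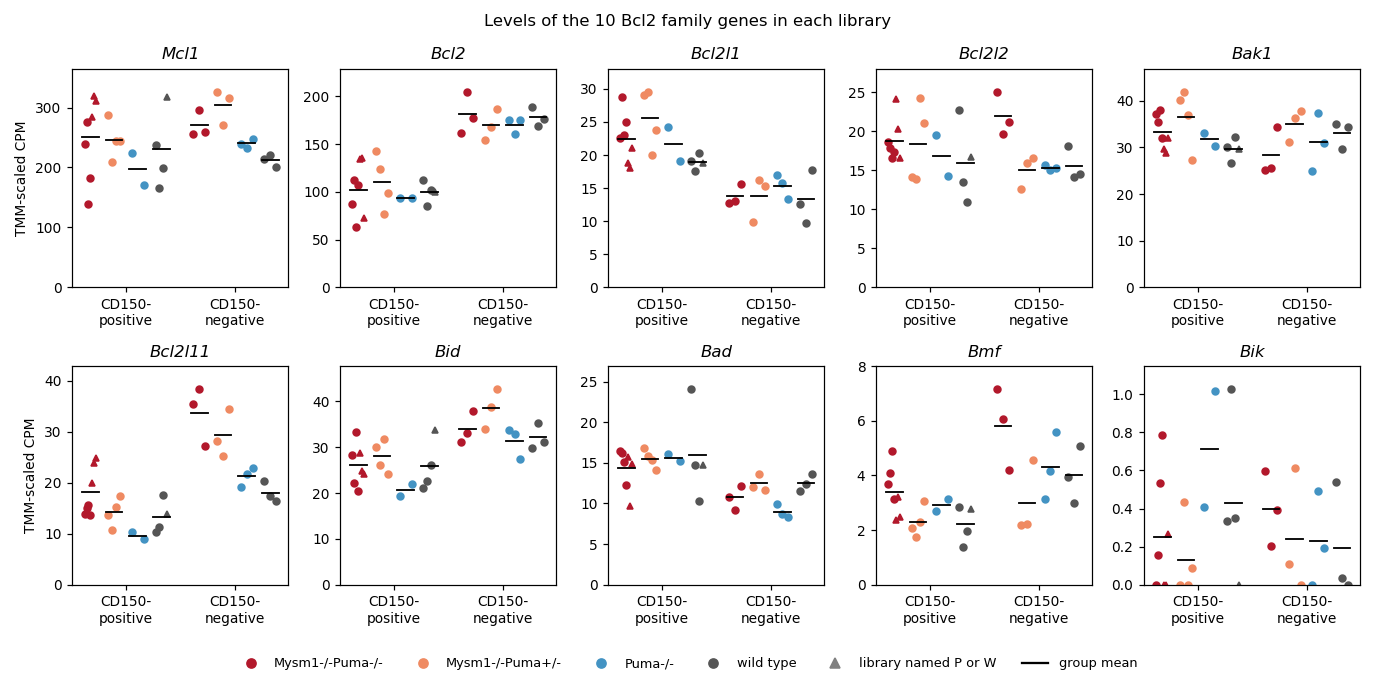
TMM-scaled CPM (y axis, from 0, with its own scale for each gene) of the 10 genes in each of the 29 libraries, grouped by population and genotype (x axis); lines are group means and triangles are libraries named P or W. Bcl2 is lower in all 17 CD150-positive libraries than in any of the 12 CD150-negative ones, Bcl2l1 is higher in 16 of the 17, and Bik stays at or under 1.02 CPM.

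Among the 4 prosurvival genes, CD150-positive and CD150-negative cells differed in the parts of Bcl2 and Bcl2l1 and overlapped in that of Mcl1. Mcl1 made up 65.6% to 80.8% of their summed length-scaled CPM in CD150-positive libraries and 65.8% to 79.8% in CD150-negative ones. Bcl2 made up 6.799% to 14.3% (median 11.7%) in the 17 CD150-positive and 13.5% to 21.2% (median 17.7%) in the 12 CD150-negative libraries. Bcl2l1 made up 6.38% to 15.9% (median 10.8%) in CD150-positive and 3.54% to 8.60% (median 5.73%) in CD150-negative libraries. The ranges of both genes overlapped slightly. These shares depend on the gene length used: with the exon lengths of the annotation, the medians were 15.8% in CD150-positive and 23.4% in CD150-negative libraries for Bcl2 and 5.50% and 2.79% for Bcl2l1, with the same order of the populations, and Mcl1 had 74.0% and 69.8%. Bcl2l2 took 3.59% to 7.85% in CD150-positive and 3.12% to 7.05% in CD150-negative libraries.

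**Figure D2:**
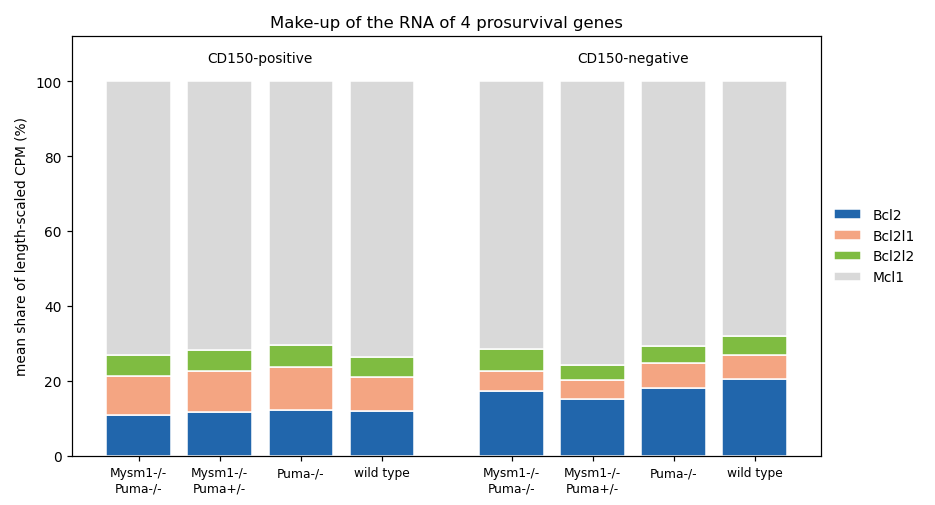
Mean share (y axis, percent) of Bcl2, Bcl2l1, Bcl2l2 and Mcl1 in the sum of their CPM scaled by the deposited gene length, for each population and genotype (x axis). The share of Mcl1 lies between 68.1% and 75.9% in every group, while CD150-positive groups have less Bcl2 (10.9% to 12.2%) and more Bcl2l1 (9.30% to 11.4%) than CD150-negative groups (15.2% to 20.5% and 5.10% to 6.66%).

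Bcl2 was lower in CD150-positive than in CD150-negative cells. In wild-type mice it had 112.4, 84.8, 101.7 and 100.2 CPM in CD150-positive libraries, against 189.1, 169.0 and 176.1 in CD150-negative ones. In Mysm1-/-Puma-/- mice the 7 CD150-positive libraries had 63.3 to 135.1 CPM (median 106.9), against 162.2, 204.7 and 177.6. Puma-/- mice had 93.7 and 93.9 CPM in CD150-positive and 174.9, 160.1 and 175.8 in CD150-negative libraries. The groups did not overlap in any of the 4 genotypes, and over all libraries the highest CD150-positive value was 142.9 CPM and the lowest CD150-negative one 153.9. In bulk samples, fewer cells of a type and less RNA per cell cannot be told apart. The log2 fold change was -0.83 ± 0.20 in wild type (adjusted p = 0.00764, edgeR), -0.83 ± 0.18 in Mysm1-/-Puma-/- (adjusted p = 0.00143) and -0.86 ± 0.25 in Puma-/- (adjusted p = 0.0398). In Mysm1-/-Puma+/- mice it was -0.62 ± 0.20 and not called (adjusted p = 0.0688, edgeR), with 142.9, 124.0, 76.3 and 98.6 CPM in CD150-positive and 153.9, 168.0 and 186.9 in CD150-negative libraries. The Puma-/- call ended when any of its 5 libraries was left out (adjusted p = 0.0585 to 0.302) and the Mysm1-/-Puma-/- call ended without CD150-negative B3 (adjusted p = 0.0849), while that in wild type held in all 15 alternatives. The Mysm1-/-Puma+/- fold was called without CD150-positive A1 (adjusted p = 0.0391), without the libraries of high receptor counts (0.0368), with the receptor counts as a covariate (0.0121), with DESeq2 (0.0398) and with limma-trend (0.0175).

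Bcl2l1, the gene of Bcl-xL, differed in the opposite direction. In Mysm1-/-Puma+/- mice it had 29.1, 29.5, 20.05 and 23.7 CPM in CD150-positive libraries, against 9.83, 16.2 and 15.3 in CD150-negative ones, and in Mysm1-/-Puma-/- mice 18.0 to 28.8 CPM (median 22.5), against 12.7, 13.1 and 15.6. In Puma-/- mice it had 24.2 and 19.15 CPM, against 17.0, 15.7 and 13.3. In all 3 genotypes the groups did not overlap. Its log2 fold change was 0.89 ± 0.21 in Mysm1-/-Puma+/- (adjusted p = 0.00625, edgeR) and 0.70 ± 0.19 in Mysm1-/-Puma-/- mice (adjusted p = 0.0123). It was 0.51 ± 0.21 in wild type (adjusted p = 0.160) and 0.50 ± 0.24 in Puma-/- mice (adjusted p = 0.297) and called in neither. Wild-type values were 19.0, 17.6, 20.3 and 18.8 CPM in CD150-positive and 12.6, 9.66 and 17.8 in CD150-negative libraries, where the highest CD150-negative value, of library D4, overlapped. Without D4 the log2 fold change was 0.77 (adjusted p = 0.0429), and the Mysm1-/-Puma+/- call ended without CD150-negative A1 (adjusted p = 0.0762). The Mysm1-/-Puma-/- call ended without CD150-negative B1 (adjusted p = 0.0987), B3 (0.0512) or the libraries of high receptor counts (0.103).

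The ratio of Bcl2l1 to Bcl2 counts, which needs no scaling between libraries, separated the populations fully. It was 0.133 to 0.363 (median 0.234) in the 17 CD150-positive libraries and 0.0571 to 0.101 (median 0.0803) in the 12 CD150-negative ones. By genotype it averaged 0.239 ± 0.081 in CD150-positive against 0.0767 ± 0.012 in CD150-negative Mysm1-/-Puma-/- libraries (SD, n = 7 and 3), 0.236 ± 0.024 against 0.0807 ± 0.016 in Mysm1-/-Puma+/- (n = 4 and 3), 0.231 ± 0.039 against 0.0904 ± 0.013 in Puma-/- (n = 2 and 3) and 0.191 ± 0.017 against 0.0749 ± 0.023 in wild type (n = 4 and 3). It was chosen after the values of both genes had been seen and is given with no test.

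**Figure D3:**
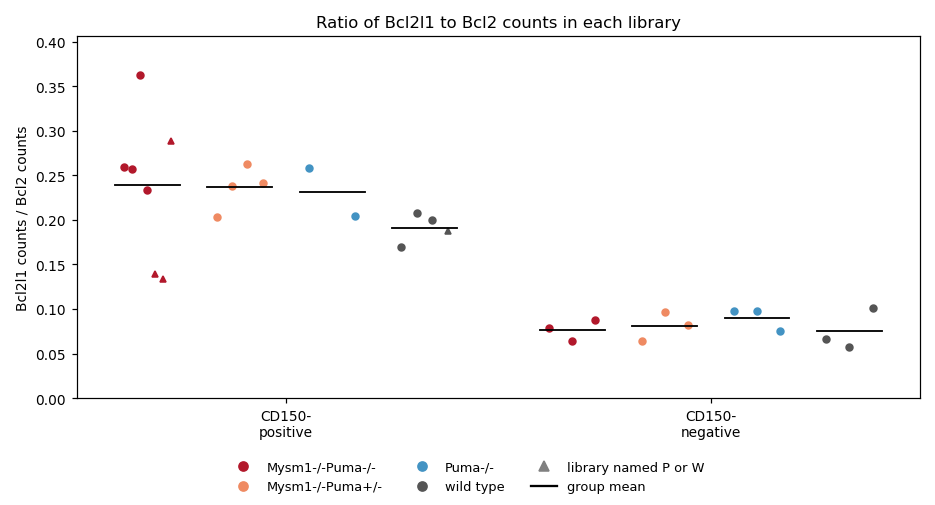
Bcl2l1 counts divided by Bcl2 counts (y axis, from 0) in each library, grouped by population and genotype (x axis); lines are group means and triangles are libraries named P or W. All 17 CD150-positive libraries lie at 0.133 or above and all 12 CD150-negative ones at 0.101 or below.

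Bcl2l11, whose product Bim binds all prosurvival members, was lower in CD150-positive cells of 3 genotypes. In Mysm1-/-Puma+/- mice it had 13.7, 10.7, 15.2 and 17.5 CPM in CD150-positive libraries, against 28.2, 25.2 and 34.5 in CD150-negative ones. In Mysm1-/-Puma-/- mice it had 13.7 to 24.9 CPM (median 15.6), against 35.4, 38.3 and 27.1, and in Puma-/- mice 10.4 and 8.90 CPM, against 19.2, 21.8 and 22.8. The groups did not overlap in these genotypes. The log2 fold change was -1.04 ± 0.22 in Mysm1-/-Puma+/- (adjusted p = 0.00244, edgeR), -0.89 ± 0.19 in Mysm1-/-Puma-/- (adjusted p = 0.00165) and -1.14 ± 0.28 in Puma-/- mice (adjusted p = 0.0117). In wild type it was -0.44 ± 0.22 and not called (adjusted p = 0.308), with 10.3, 11.3, 17.6 and 13.95 CPM in CD150-positive and 20.4, 17.3 and 16.4 in CD150-negative libraries, which overlapped. The Puma-/- call ended without CD150-positive C1-4 (adjusted p = 0.0722) or C2-5 (adjusted p = 0.215), and the Mysm1-/-Puma-/- call without CD150-negative B3 (adjusted p = 0.0770). That in Mysm1-/-Puma+/- mice held in all 16 alternatives.

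The other members were called in no population comparison with edgeR. Over the 4 genotypes log2 fold changes were -0.60 to -0.31 for Bid and 0.32 to 0.79 for Bad, with the smallest adjusted p at 0.0883 for Bid and 0.0637 for Bad (edgeR). In Puma-/- mice Bid had 19.4 and 22.0 CPM in CD150-positive and 33.7, 32.9 and 27.4 in CD150-negative libraries, and was called with limma-trend (adjusted p = 0.0419) and without the libraries named P or W (0.0485). Bad had 16.0 and 15.2 CPM in CD150-positive and 9.88, 8.74 and 8.39 in CD150-negative libraries of these mice, and was called with DESeq2 (adjusted p = 0.0319). For both genes the populations did not overlap in Puma-/- mice, with only 2 CD150-positive and 3 CD150-negative libraries, or in Mysm1-/-Puma+/- mice. How many of all genes were separated in the same way was not computed. Bid had 19.4 to 33.8 CPM in CD150-positive and 27.4 to 42.6 in CD150-negative libraries, and Bad 9.70 to 24.0 and 8.39 to 13.6 CPM. Bmf, which is tied to the cytoskeleton in healthy cells, had 1.37 to 4.89 CPM in CD150-positive and 2.18 to 7.15 in CD150-negative libraries. Its wild-type libraries did not overlap, with 2.83, 1.37, 1.975 and 2.79 CPM in CD150-positive and 3.95, 2.99 and 5.09 in CD150-negative cells, at a log2 fold change of -0.83 ± 0.37 (adjusted p = 0.227). The log2 fold changes of Mcl1 were -0.31 to 0.12, those of Bak1 -0.16 to 0.23 and those of Bcl2l2, the gene of Bcl-w, -0.23 to 0.29. In wild type the 95% interval was -0.29 to 0.54 for Mcl1 and -0.46 to 0.15 for Bak1, which leaves room for differences in either direction.

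By genotype, CD150-positive against CD150-negative cells gave 3 of 10 members called in Mysm1-/-Puma-/- mice, where 12.3% of all 21830 genes tested were called. In Mysm1-/-Puma+/- mice 2 of 10 were called against 5.90% of all genes, in Puma-/- mice 2 of 10 against 4.94% and in wild type 1 of 10 against 7.15%. The median log2 fold change over the members was -0.31, -0.34, -0.13 and -0.06 in that order of genotypes, beside medians of -0.07, -0.00, 0.15 and 0.05 over all genes. Megakaryocyte markers differed with the populations too: 5, 4, 4 and 4 of the 5 markers were called higher in CD150-positive cells, where their sum was 240.9 to 1228 CPM, against 33.5 to 63.5 in CD150-negative cells. Of the 4 erythroid markers that passed the filter, out of 6, 3, 1, 0 and 0 were called higher, with sums of 7.06 to 396.4 CPM in CD150-positive and 2.77 to 78.5 in CD150-negative libraries, where Hba-a1 was at 0. Sums of 6 granulocyte and monocyte markers were 404.8 to 1069 CPM in CD150-positive and 650.7 to 2078 in CD150-negative libraries. Of these 6, 1, 2, 1 and 1 were called lower in CD150-positive cells. The part of these cells in the member results was not tested.

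**Figure D4:**
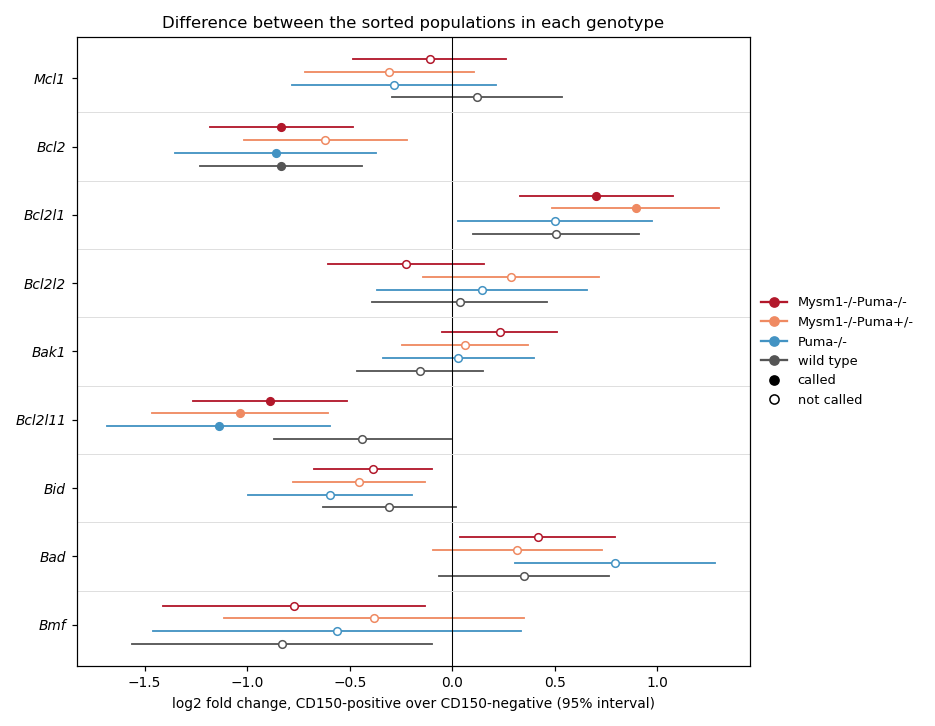
Log2 fold change of CD150-positive over CD150-negative cells (x axis) with its 95% interval for 9 members (rows; Bik is left out for its width) in each genotype (colours), filled where called. Bcl2 lies below 0 and Bcl2l1 above 0 in all 4 genotypes, and Bcl2l11 is called lower in all but wild type.

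In CD150-negative cells, Bcl2l11 was higher in the libraries labelled Mysm1-/-Puma-/- than in wild type. It had 35.4, 38.3 and 27.1 CPM in Mysm1-/-Puma-/- libraries, against 20.4, 17.3 and 16.4 in wild type, and the groups did not overlap. Its log2 fold change was 0.84 ± 0.17 (adjusted p = 0.0130, edgeR), the single member called of 10, where 2.31% of all 21168 genes were called. The call ended without CD150-negative B1, B3, D3 or D4 (adjusted p = 0.0506 to 0.0894), and over all single libraries left out the log2 fold change was 0.71 to 0.96. Mcl1 had 255.6, 295.7 and 259.4 CPM, against 214.6, 220.5 and 199.9 in wild type, with a log2 fold change of 0.30 ± 0.13 that was not called (adjusted p = 0.332). Bcl2l2 had 25.02, 19.7 and 21.2 CPM, against 18.0, 14.2 and 14.6 in wild type, without overlap, and a log2 fold change of 0.43 ± 0.17 that was not called either (adjusted p = 0.259). The median log2 fold change was 0.16 over the members and 0.02 over all genes.

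With 1 copy of Puma left, Mcl1 and Bcl2l11 had the smallest p-values and neither was called. Mcl1 had 325.9, 271.5 and 315.8 CPM in CD150-negative Mysm1-/-Puma+/- libraries, against 214.6, 220.5 and 199.9 in wild type, a log2 fold change of 0.55 ± 0.13 (adjusted p = 0.0604, edgeR). Bcl2l11 had 28.2, 25.2 and 34.5 CPM, against 20.4, 17.3 and 16.4, a log2 fold change of 0.73 ± 0.17 (adjusted p = 0.0620). Neither gene's values overlapped between the groups. Of the 10 members 0 were called, where 0.869% of all genes were. DESeq2 called 2 members, and 2.61% of the genes to which it gave an adjusted p. Of the members 2 had an unadjusted p under 0.05, as did 9.54% of all genes. The median log2 fold change was 0.10 over the members and -0.05 over all genes. In the same fits the p53 targets of the family were called: Bbc3 by 2.28 ± 0.28, Bax by 1.87 ± 0.16 and Pmaip1 by 3.11 ± 0.35 in Mysm1-/-Puma+/- and by 1.95 ± 0.28, 1.22 ± 0.16 and 2.46 ± 0.34 in Mysm1-/-Puma-/- libraries, on the log2 scale over wild type. Both comparisons share the 3 wild-type libraries.

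Markers of other cells moved with the genotype as well. Igj, the gene of the J chain of antibodies, was the 1 of 5 measured B lineage markers called in each of these comparisons. Of the 5 folds, 3 were positive and 2 negative in each, with medians of 0.06 in Mysm1-/-Puma-/- and 0.24 in Mysm1-/-Puma+/- libraries. The sum of the list was 151.8 to 1379 CPM in CD150-negative Mysm1-/-Puma-/- and 350.0 to 1224 in Mysm1-/-Puma+/- libraries, against 71.0 to 147.3 in wild type. Nkg7 was the 1 of 5 T and NK markers called, in Mysm1-/-Puma+/- libraries, where the list summed to 35.3 to 46.7 CPM, against 20.9 to 25.5 in wild type. Of the 5 T and NK folds in that comparison, 3 were positive and 2 negative. Erythroid markers summed to 8.23 to 23.4 CPM in Mysm1-/-Puma-/- and 2.77 to 37.6 in Mysm1-/-Puma+/- libraries, against 41.7 to 43.4 in wild type, without overlap, and the fold of each of the 4 tested was negative in both comparisons. Megakaryocyte markers summed to 38.7 to 55.0 CPM in Mysm1-/-Puma-/- and 51.7 to 63.5 in Mysm1-/-Puma+/- libraries, against 33.5 to 37.2 in wild type, also without overlap, with 3 and 5 of 5 folds positive. None of the erythroid or megakaryocyte markers was called. An unadjusted p under 0.05 was found for 2 and 1 erythroid and 0 and 3 megakaryocyte markers, beside 13.1% and 9.54% of all genes. Whether these cells take part in the values of Bcl2l11 and Mcl1 was not tested. Of the 6 markers of the sorted cells, 0 were called in either comparison. Their folds were positive for 2 in Mysm1-/-Puma+/- and 3 in Mysm1-/-Puma-/- libraries. Ly6a averaged 18.6 ± 3.79 CPM in CD150-negative Mysm1-/-Puma+/- and 18.8 ± 6.45 in Mysm1-/-Puma-/- libraries, against 9.12 ± 1.66 in wild type (SD). Flt3 averaged 385.9 ± 171.8, 645.0 ± 103.0 and 642.8 ± 71.4 CPM in that order. Over Puma-/- libraries, 1 of the 6 was called higher in Mysm1-/-Puma-/- ones.

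Between groups that are both labelled Puma-/-, the fold of Bcl2l11 was in the same direction without a call. Its 35.4, 38.3 and 27.1 CPM in CD150-negative Mysm1-/-Puma-/- libraries stood against 19.2, 21.8 and 22.8 in Puma-/- libraries, a log2 fold change of 0.62 ± 0.17 (adjusted p = 0.112, edgeR). Here 0 of 10 members were called, where 1.35% of all genes were; 2 had an unadjusted p under 0.05, and DESeq2 called 1. Against Mysm1-/-Puma+/- libraries, 0 of 10 were called in Mysm1-/-Puma-/- ones, where 1.24% of all genes were, and DESeq2 called 0. Of the members 3 (Bcl2l2, Bmf and Bak1) had an unadjusted p under 0.05, as did 17.0% of all genes. Bcl2l2 had 25.02, 19.7 and 21.2 CPM in Mysm1-/-Puma-/- libraries, against 12.6, 16.0 and 16.5 in Mysm1-/-Puma+/- ones, with no overlap and a log2 fold change of 0.45 ± 0.17 (adjusted p = 0.180). Bmf averaged 5.81 ± 1.501 CPM, against 2.997 ± 1.36 (SD, n = 3 each).

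Puma-/- over wild-type libraries gave 0 of 10 members called in CD150-negative cells, where 0% of all genes were called with edgeR and 1.53% had an unadjusted p under 0.05. One member, Bad, had an unadjusted p under 0.05, with 9.88, 8.74 and 8.39 CPM in Puma-/- libraries, against 11.6, 12.4 and 13.6 in wild type, and DESeq2 called 0. Bcl2 differed by a log2 fold change of -0.08, with a 95% interval of -0.35 to 0.19, and Mcl1 by 0.17, with an interval of -0.09 to 0.42. Mcl1 values were 239.8, 232.7 and 248.0 CPM in Puma-/- libraries, above the 214.6, 220.5 and 199.9 of wild type in every library, without a call.

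In CD150-positive cells, no member was called in any of the 5 genotype comparisons, which together are 50 tests with a smallest adjusted p of 0.387 (edgeR). DESeq2 called 0 in each. Over wild type, 0.291% of all 20944 genes were called in Mysm1-/-Puma-/-, 0.454% in Mysm1-/-Puma+/- and 0% in Puma-/- libraries. In that order 1, 2 and 0 members had an unadjusted p under 0.05, beside 7.43%, 8.71% and 1.22% of all genes. Mysm1-/-Puma-/- libraries gave 0% of all genes called over Mysm1-/-Puma+/- and 0.115% over Puma-/- ones. There 0 and 1 members had an unadjusted p under 0.05, beside 3.81% and 9.75% of all genes. Medians over the members were 0.16, 0.18, -0.01, -0.09 and 0.20 on the log2 scale in that order, beside -0.05, -0.05, 0.02, 0.01 and -0.09 over all genes.

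The values nearest to a call were those of Bcl2l1 and Bcl2l11. Bcl2l1 had 29.1, 29.5, 20.05 and 23.7 CPM in CD150-positive Mysm1-/-Puma+/- libraries, against 19.0, 17.6, 20.3 and 18.8 in wild type, which overlapped, with a log2 fold change of 0.51 ± 0.19 (adjusted p = 0.435, edgeR). Bcl2l11 had 13.7 to 24.9 CPM in Mysm1-/-Puma-/- libraries, above the 10.4 and 8.90 of Puma-/- ones, with a log2 fold change of 0.97 ± 0.30 (adjusted p = 0.387). Bak1 differed by 0.38 ± 0.16 between Mysm1-/-Puma+/- and wild-type libraries (adjusted p = 0.521). The same fits called Bbc3, by 2.43 ± 0.23 and 2.36 ± 0.21, and Bax, by 1.33 ± 0.18 and 1.13 ± 0.16, over wild type in Mysm1-/-Puma+/- and Mysm1-/-Puma-/- libraries, while Pmaip1 was not called (adjusted p = 0.291 and 0.0505). The 95% interval of Bcl2 in Mysm1-/-Puma-/- over wild type was -0.35 to 0.45 and that of Mcl1 -0.29 to 0.57, which leaves room for differences in either direction. Nkg7 was the 1 of 5 T and NK markers called in both, by 1.125 ± 0.24 and 1.02 ± 0.21 on the log2 scale. The folds of the other 4 were negative in both comparisons.

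The difference of the Mysm1-/-Puma+/- effect between the populations was tested in 1 fit of all libraries. Of the 10 members 0 were called, where 0.00916% of all genes were, and DESeq2 called 0. Of the members 0 had an unadjusted p under 0.05, beside 3.67% of all genes. The log2 effect in CD150-positive minus that in CD150-negative cells was -0.60 ± 0.31 for Bcl2l11 (95% interval -1.21 to 0.01) and -0.43 ± 0.30 for Mcl1 (-1.01 to 0.15). A response of these genes in CD150-negative cells alone was therefore not shown.

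**Figure D5:**
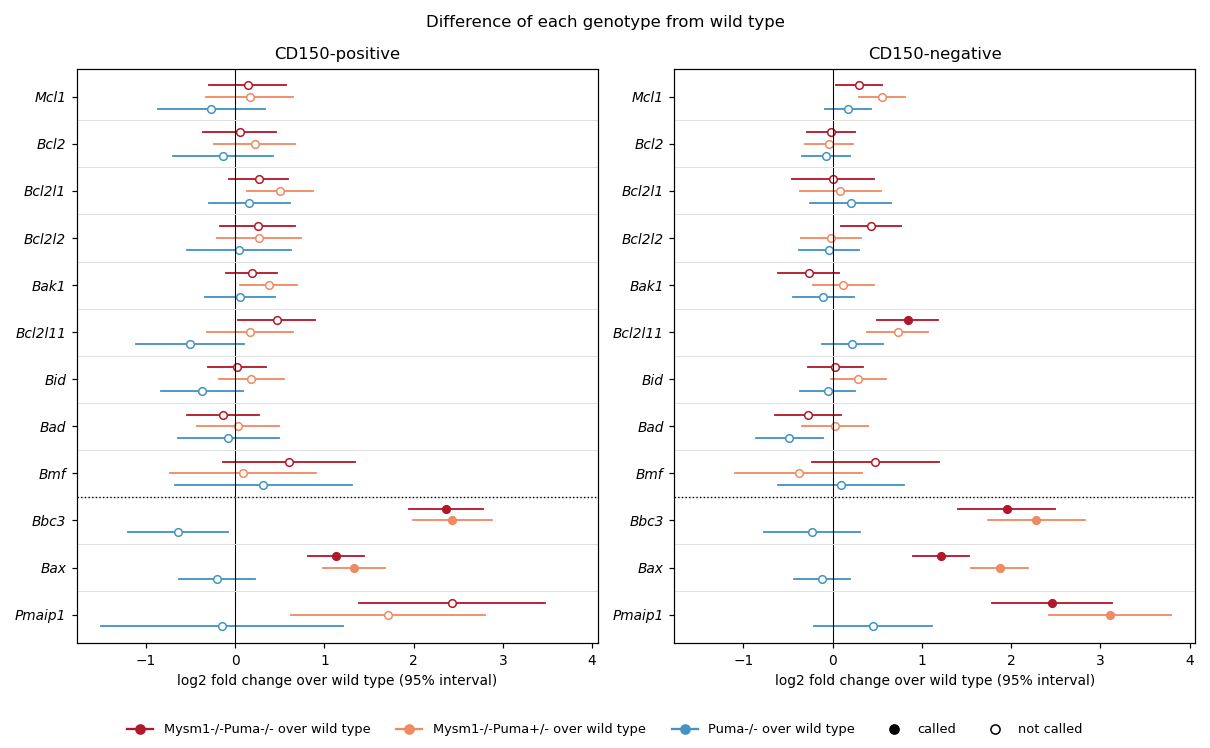
Log2 fold change over wild type (x axis) with its 95% interval for 9 members above the dotted line and Bbc3, Bax and Pmaip1 below it, in CD150-positive (left) and CD150-negative cells (right), coloured by genotype and filled where called. Bcl2l11 in CD150-negative Mysm1-/-Puma-/- cells is the single filled member.

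The CD150-positive Mysm1-/-Puma-/- libraries carry names with 2 letters, B and P. Only 1 other library, the wild-type W1, has a letter outside A to D. P and W were left out together here, and no label puts them in the same series. Bcl2l11 had 19.96, 23.97 and 24.9 CPM in P1 to P3, against 13.9, 15.1, 15.6 and 13.7 in the B libraries, and Bcl2l1 18.8, 18.0 and 21.0 CPM, against 22.5, 28.8, 22.96 and 25.01, both without overlap. Mcl1 averaged 304.7 ± 18.1 CPM in P (SD, n = 3) and 209.4 ± 60.5 in B libraries (n = 4). The wild-type W1 had 317.9 CPM, the highest wild-type value. What the names stand for was not given. Without the P and W libraries, CD150-positive over CD150-negative Mysm1-/-Puma-/- cells gave log2 fold changes of -1.20 for Bcl2l11, 0.86 for Bcl2l1 and -0.97 for Bcl2 (adjusted p = 0.000136, 0.00835 and 0.00102, edgeR), and Bcl2l11 over wild type in CD150-positive cells gave 0.17, against 0.47 with them.

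Other genes of the pathway were read from lists of 5 further prosurvival members, 7 further death-promoting or related members, 3 genes of Mcl1 turnover and 10 of the apoptosome and its inhibitors. None of the 3 turnover genes (Huwe1, Usp9x and Fbxw7, whose products add or remove the ubiquitin that marks Mcl1 for decay) was called in any of the 15 comparisons. None of the further prosurvival genes was called either, of which 3 of 5 in CD150-negative cells and 5 of 5 elsewhere passed the filter. The Bcl2a1 copies among them are nearly alike in sequence, so reads may be split between them. In the genotype comparisons 1 gene of these lists was called, Apaf1, the scaffold of the apoptosome. It differed by 0.77 ± 0.14 in CD150-positive Mysm1-/-Puma+/- over wild-type libraries (adjusted p = 0.00817, edgeR). Averages were 73.2 ± 6.61 and 45.1 ± 2.39 CPM (SD, n = 4 each). Without a call, Apaf1 averaged 59.4 ± 8.86 CPM in CD150-positive Mysm1-/-Puma-/- and 41.2 ± 2.98 in Puma-/- libraries. In CD150-negative cells it averaged 67.0 ± 4.91 in Mysm1-/-Puma+/- and 59.6 ± 2.05 in Mysm1-/-Puma-/- libraries, also without a call. Puma-/- libraries there had 45.3 ± 1.88 and wild-type ones 45.3 ± 5.91 CPM.

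Between the populations, 1 of the 7 further death-promoting or related genes was called higher in CD150-positive cells in each genotype and 1 lower in Mysm1-/-Puma-/- mice. Of the 10 apoptosome genes, 2 were called higher in Mysm1-/-Puma-/-, 1 in Mysm1-/-Puma+/-, 0 in Puma-/- and 2 in wild-type mice, and 0 lower. Among all genes tested, 12.3%, 5.90%, 4.94% and 7.15% were called in that order, in either direction. Bnip3l, which marks mitochondria for removal, was higher in CD150-positive cells by 0.50 ± 0.12 on the log2 scale in Mysm1-/-Puma-/-, 0.54 ± 0.13 in Mysm1-/-Puma+/-, 0.56 ± 0.15 in Puma-/- and 0.49 ± 0.13 in wild-type mice. Htra2, a protease that can leave mitochondria and cut caspase inhibitors, was higher by 1.04 ± 0.20 in Mysm1-/-Puma-/-, 0.71 ± 0.21 in Mysm1-/-Puma+/- and 0.97 ± 0.22 in wild-type mice. Bcl2l15 was lower in Mysm1-/-Puma-/- mice, by a log2 fold change of -2.08 ± 0.54. Among the p53 targets, Pmaip1 was lower in CD150-positive cells of Mysm1-/-Puma+/- mice, by -1.66 ± 0.50, and Bbc3 in those of Puma-/- mice, by -1.15 ± 0.31.

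Bcl2l11 was called in 4 of the 15 comparisons, more than Bcl2 with 3 and Bcl2l1 with 2. Over the 29 libraries, the genes whose log2 CPM followed that of Bcl2l11 most closely among 11536 genes were BC005764, Ypel1 and Wsb1, with a Spearman correlation of 0.884, 0.873 and 0.865. These libraries share populations, genotypes and depth, so the correlation is a description of this set.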

How the data were processed

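RNA from sorted marrow cells was depleted of ribosomal RNA and sequenced as stranded paired reads, per the labels' protocols. The authors deposited whole-number read counts and a length for each gene symbol; mm9, Trimmomatic 0.33, TopHat2 2.0.9, Bowtie 1.0.0, featureCounts, edgeR and R 3.4.2 are named, per the submitters' processing notes. The sources used here do not state the strand setting or the annotation behind the counting. A deposited matrix of normalised CPM by the authors, with 12578 genes and 9 of the 10 members (not Bik), served as an alternative only, and it had 0 columns of other samples. Lowest and highest library totals are in the report.

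Genes were kept by filterByExpr, counts were scaled by TMM and tested with edgeR 4.0.16 (R 4.3.3): 21168 genes in 12 CD150-negative, 20944 in 17 CD150-positive and 21830 in all 29 libraries. Adjusted p-values are Benjamini-Hochberg values over all genes tested. Values after ± are standard errors of log2 fold changes (the fold change over the square root of F, an approximation) or the SD of levels. Intervals are 1.96 standard errors wide on each side. The tests were tried on simulated counts. All 46 within-group pairs of libraries differed by more than counting noise (chi-square per degree of freedom at least 20.75).

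All 10 members were named by their symbols. The likeness rule took the member with the most calls, and of the other pathway lists every called gene was named, except for 1 that is not reported here. The members and lists were chosen with earlier results of these data known. Each test was repeated with DESeq2 1.42.0, with RLE size factors, without the filter and with limma-trend (limma 3.58.1) on log2 of the deposited CPM plus 1. It was also repeated with a background covariate, on the compared groups alone and with a block by library number. Each library, and the libraries named P or W together, were left out in turn. Further alternatives, leaving out libraries with a receptor-gene background over 1.5 times the median of their population and shares with annotated exon lengths, were chosen after seeing the data.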

Additional observations from a re-analysis of the deposited data

How the results depend on the processing

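Of 2398 alternative values of the 150 member results, 2356 kept their side of the threshold, 21 lost a call and 21 gained one. Direction was compared only where the main value or the alternative was called, and 0 of those were reversed. The direction of values called in neither was not compared. In CD150-negative cells, Mysm1-/-Puma+/- over wild type had 0 members called, but 1 (Mcl1) with RLE size factors, 1 with the background covariate, 1 without high background libraries, and 2 (Mcl1 and Bcl2l11) with DESeq2 and with limma-trend on deposited CPM. Mysm1-/-Puma-/- over wild type had 1, but 2 with limma-trend and 0 without high background libraries. Mysm1-/-Puma-/- over Puma-/- had 0, but 1 (Bcl2l11) with the background covariate, with DESeq2 and with limma-trend. CD150-positive over CD150-negative Puma-/- cells had 2, but 1 with the background covariate and 0 without high background libraries. The cause of these changes was not tested. Leaving out 1 library at a time gave 0 to 1 members for CD150-negative Mysm1-/-Puma+/- over wild type (Mcl1 without A2, adjusted p = 0.0464 in edgeR), 0 to 1 for Mysm1-/-Puma-/- over wild type, 1 to 2 for the populations in wild type, 1 to 3 in Mysm1-/-Puma+/-, 0 to 3 in Mysm1-/-Puma-/- and 0 to 1 in Puma-/- mice. The counts of 0 in the 5 CD150-positive genotype comparisons, in CD150-negative Puma-/- over wild type and Mysm1-/-Puma-/- over Mysm1-/-Puma+/-, and for the difference between populations were 0 under every alternative run. DESeq2 called more genes in the comparisons below, and its shares are over the fewer genes it gave an adjusted p. For CD150-negative Mysm1-/-Puma+/- over wild type it called 423 of 16233 genes (2.61%), against 184 of 21168 (0.869%) with edgeR. For Mysm1-/-Puma-/- over wild type it called 1029 of 12953 (7.94%), against 490 of 21168 (2.31%). For the populations in wild type it called 2136 of 14633 (14.6%), against 1560 of 21830 (7.15%).

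With the library number as a replicate block, 0 members were called in each of the 7 genotype comparisons it could be fitted to, 2 between the populations in Mysm1-/-Puma+/- and 3 in Mysm1-/-Puma-/- mice, the counts also found without it. Same-numbered libraries did not deviate together throughout: correlations were -0.49 to 0.33 over 11 pairs in CD150-negative, -0.05 to 0.46 over 6 in CD150-positive cells and -0.19 to 0.64 over 7 between the populations, so the numbers were not taken to pair samples. No paired analysis was possible because too few numbers are shared for CD150-negative Mysm1-/-Puma-/- over wild type, for the CD150-positive comparisons with Puma-/-, for the populations in Puma-/- and wild-type mice and for the difference between populations. Bik had at most 24 counts in a library, so its fold changes carry wide intervals.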
